A study of Homo sapiens with 8 samples.

Results

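The miR-15/16 guide arms are 5 mature miRNAs taken by name from the array's annotation, namely hsa-miR-15a-5p, hsa-miR-15b-5p, hsa-miR-16-5p, hsa-miR-195-5p and hsa-miR-497-5p, and they are 5 of the 1887 human miRNAs on the array. A guide arm is the strand of a miRNA hairpin that is mainly loaded into Argonaute, and miR-424-5p and miR-503-5p, which are relatives from another locus, were not counted among the members. RNA came from PC-3, an androgen-independent human prostate cancer cell line, after 24 h with the solvent DMSO alone, 60 µM luteolin (a plant flavone), 60 µM gefitinib (an inhibitor of the EGFR tyrosine kinase) or both drugs at 60 µM each, all dissolved in DMSO. Each treatment had 2 arrays, 8 in all, which the labels call biological replicates without saying whether they came from separate cultures, so p-values measure the spread between these arrays, which may be technical.

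miRNAs of this family bind messenger RNAs that pair with the seed at their 5′ end. Known targets include the anti-apoptotic protein BCL2 and regulators of the cell cycle, among them the D-type cyclins, cyclin E and CDK6, which act in G1, and the checkpoint kinases WEE1 and CHEK1. The MIR15A and MIR16-1 hairpins lie in a part of chromosome 13 that is often deleted in chronic lymphocytic leukaemia, and loss of the family has also been described in prostate cancer. The comparisons ask whether either drug, or both together, changed the levels of these miRNAs.

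The mature sequences of the 5 guide arms are shown to make plain what the members share, with bases 2 to 8, the seed, in capitals (RefSeq, GRCh38.p14, 5′ to 3′).
hsa-miR-15a-5p: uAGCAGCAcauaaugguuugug
hsa-miR-15b-5p: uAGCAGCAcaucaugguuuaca
hsa-miR-16-5p: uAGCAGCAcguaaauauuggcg
hsa-miR-195-5p: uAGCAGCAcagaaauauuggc
hsa-miR-497-5p: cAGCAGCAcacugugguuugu

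All 5 carried the same seed. Read from the 5′ end without gaps, miR-16-5p and miR-195-5p were identical at 19 of 21 bases and miR-15a-5p and miR-15b-5p at 18 of 22, whereas miR-16-5p and miR-497-5p were identical at 11 of 21. How far one guide arm binds the probes of a close relative was not tested. Among the 1578 array miRNAs that matched the RefSeq table by name, miR-424-5p was the only other one with this seed, which makes 6 among those matched.

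The 5 guide arms come from 6 hairpins in 3 clusters. miR-15a-5p (chr13:50049167-50049188, minus strand, GRCh38.p14) and a copy of miR-16-5p (chr13:50049027-50049048, minus strand) are cut from the MIR15A and MIR16-1 hairpins, which lie 57 bases apart within the span of the long non-coding RNA gene DLEU2. miR-15b-5p (chr3:160404607-160404628, plus strand) and the second copy of miR-16-5p (chr3:160404754-160404775, plus strand) come from MIR15B and MIR16-2, 59 bases apart within the span of SMC4, a gene for a condensin subunit. miR-195-5p (chr17:7017667-7017687, minus strand) and miR-497-5p (chr17:7017979-7017999, minus strand) come from MIR195 and MIR497, 209 bases apart within the span of the non-coding gene MIR497HG. The guide arm of miR-16 is the same in both of its hairpins, so its signal sums over both clusters.

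Between 395 and 481 miRNAs were detected per array, and 365 were detected on all 8 arrays. Of the cell type markers, 3 of 6 epithelial miRNAs (miR-200a-3p, miR-200b-3p and miR-429) were detected on every array, miR-205-5p was detected on 6 (not on gefitinib replicate 2 or combination replicate 2), and miR-200c-3p and miR-141-3p were detected on none, while 4 of 5 blood, 4 of 4 muscle and 1 of 1 endothelial miRNAs were detected on no array. Signals below are total gene signals, the scanner software's sum over a miRNA's probes, scaled so that the 75th percentile over those 365 miRNAs was equal on all arrays. A scaled signal has arbitrary units and can be compared between arrays for 1 miRNA, not between miRNAs. Changes are log2 differences of scaled signals, tested with limma over 480 miRNAs with Benjamini-Hochberg adjustment, and a miRNA was called at an adjusted p under 0.05. The RNA was taken from whole cultures and 100 ng was labelled for each array, so fewer cells with a miRNA and less of it per cell cannot be told apart.

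The 5 guide arms were detected on all 8 arrays, and none of them changed by the test in any of 7 comparisons. With luteolin against DMSO 0 of 5 were called, where 2.08% of all 480 tested miRNAs were. With gefitinib against DMSO 0 of 5 were called beside 12.1% of all tested, and with both drugs 0 of 5 beside 12.1%. No member reached an unadjusted p under 0.05 in these comparisons, and the lowest adjusted p of a member in any comparison was 0.613 by limma. The median log2 change of the 5 guide arms was -0.12 with luteolin, -0.05 with gefitinib and -0.08 with both drugs, beside medians of -0.10, -0.10 and -0.16 over all 480 miRNAs tested.

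miR-16-5p, which gives the family its name together with miR-15, had scaled signals of 613 and 887 with DMSO, 538 and 855 with luteolin, 666 and 684 with gefitinib and 620.2 and 709 with both drugs. The lowest and the highest of the 8 values were thus on a luteolin and a DMSO array, and both gefitinib arrays and both arrays of the drug combination lay between the pair of DMSO arrays. Its log2 change against DMSO was -0.12 with luteolin (95% interval -0.83 to 0.59), -0.13 with gefitinib (-0.84 to 0.58) and -0.15 with both drugs (-0.86 to 0.56), with limma adjusted p of 0.981, 0.845 and 0.798. In fold terms the interval for both drugs ran from 0.551 to 1.47, so a fall to about that lower bound or a rise to that upper one could not have been told from no change with 2 arrays per group.

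miR-15a-5p, the other guide arm of the chromosome 13 cluster, had scaled signals of 90.3 and 124 with DMSO, 78.3 and 119 with luteolin, 94.2 and 96.9 with gefitinib and 91.4 and 106 with both drugs. As for miR-16-5p, the luteolin arrays were the widest apart and every gefitinib and combination array lay between the DMSO arrays. The log2 change was -0.13 with luteolin (interval -0.78 to 0.52), -0.15 with gefitinib (-0.79 to 0.50) and -0.10 with both drugs (-0.75 to 0.54).

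miR-15b-5p, its counterpart on chromosome 3, had scaled signals of 309 and 468 with DMSO, 280.0 and 489 with luteolin, 370.5 and 362 with gefitinib and 337 and 383 with both drugs. Here the luteolin arrays held both the lowest and the highest value, and the groups overlapped in every comparison. The log2 change was -0.04 with luteolin (interval -0.85 to 0.77), -0.05 with gefitinib (-0.86 to 0.75) and -0.08 with both drugs (-0.89 to 0.73).

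The members of the chromosome 17 cluster were dim. miR-195-5p had scaled signals of 6.47 and 11.6 with DMSO, 5.79 and 10.9 with luteolin, 8.44 and 9.58 with gefitinib and 7.40 and 9.02 with both drugs. Between 20 and 30 of its 30 spots were well above background on an array, and the groups overlapped in every comparison. Its log2 change was -0.12 with luteolin (interval -1.12 to 0.87), 0.05 with gefitinib (-0.94 to 1.05) and -0.08 with both drugs (-1.08 to 0.91).

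miR-497-5p had scaled signals of 3.12 and 4.81 with DMSO, 4.87 and 6.48 with luteolin, 3.39 and 5.53 with gefitinib and 4.59 and 3.69 with both drugs. It was the only member with groups that did not overlap: both luteolin arrays lay above both DMSO arrays, and both combination arrays below both luteolin arrays. Groups did not overlap for 26.9% of all tested miRNAs between luteolin and DMSO and for 34.2% between the combination and luteolin. The log2 change with luteolin was 0.54 (interval -0.31 to 1.38, limma adjusted p = 0.781), and with gefitinib and both drugs it was 0.16 and 0.09.

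**Figure D1:**
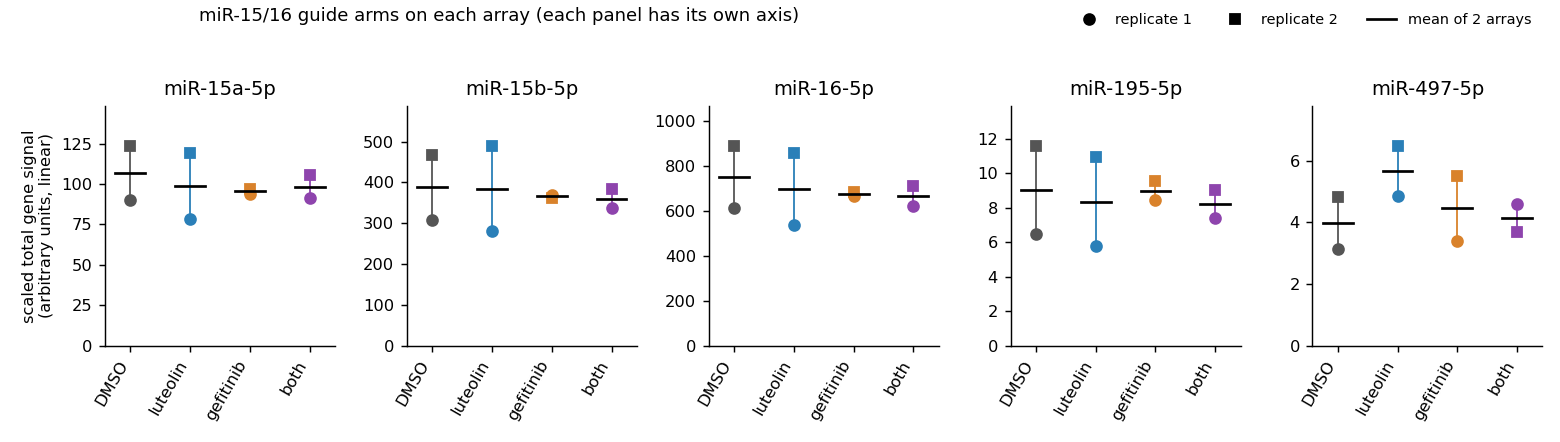
Scaled total gene signal (arbitrary units, linear axis from 0) of the 5 miR-15/16 guide arms, with a panel and an axis of its own for each. Circles are replicate 1 and squares replicate 2 of DMSO, luteolin, gefitinib and both drugs, and the horizontal bar is the mean of the 2 arrays. The pairs of DMSO and luteolin arrays are far apart for miR-15a-5p, miR-15b-5p, miR-16-5p and miR-195-5p and enclose most of the gefitinib and combination values.

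Arranged by mean log2 signal, DMSO was the highest treatment for miR-15a-5p, miR-15b-5p and miR-16-5p, gefitinib for miR-195-5p and luteolin for miR-497-5p. The highest and lowest treatments differed by 1.11-fold for miR-15a-5p, 1.06-fold for miR-15b-5p, 1.11-fold for miR-16-5p, 1.13-fold for miR-195-5p and 1.45-fold for miR-497-5p. The largest gap between the 2 arrays of a treatment was wider for each of them, at 1.52-fold, 1.75-fold, 1.59-fold, 1.89-fold and 1.63-fold in the same order. Neighbouring treatments in these orders overlapped for every member, and none of the 15 neighbouring pairs was called.

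**Figure D2:**
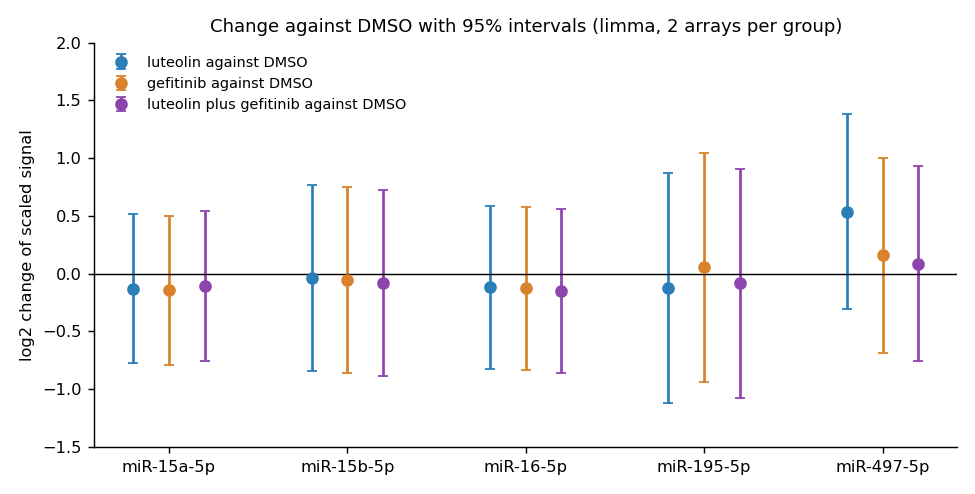
Log2 change of scaled signal against DMSO (vertical axis) for the 5 guide arms with luteolin (blue), gefitinib (orange) and both drugs (purple), with 95% intervals from the limma fit over all 8 arrays. Every interval holds 0, and the widest belong to the dim miR-195-5p.

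Adding gefitinib to luteolin moved the guide arms by log2 changes of -0.45 (miR-497-5p) to 0.04 (miR-195-5p) against luteolin alone, and 0 of 5 were called beside 1.88% of all tested. Adding luteolin to gefitinib gave log2 changes of -0.14 (miR-195-5p) to 0.04 (miR-15a-5p) against gefitinib alone, with 0 of 5 called beside 4.58%. Gefitinib against luteolin gave -0.37 (miR-497-5p) to 0.18 (miR-195-5p), with 0 of 5 called beside 5.00%. The interaction, the effect of both drugs less the sum of their single effects, was called for 0 of 5 beside 3.33% of all tested. The interaction estimates ran from -0.61 for miR-497-5p (interval -1.80 to 0.58) to 0.17 for miR-15a-5p (-0.75 to 1.08). For miR-497-5p these values come from totals that counted 1 or 2 probes, and with both probes summed on every array they were -0.19 for the combination against luteolin, -0.18 for gefitinib against luteolin and -0.07 for the interaction.

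On the DMSO and luteolin arrays the spread that set these intervals ran the same way in all members. On the DMSO arrays replicate 1 was below replicate 2 for all 5 guide arms, by log2 gaps of 0.45 to 0.84, and on the luteolin arrays likewise, by 0.41 to 0.92. The median gap over all 365 miRNAs detected on every array was smaller, at 0.32 for DMSO and 0.39 for luteolin. The gefitinib arrays differed by 0.18 or less for 4 members and by 0.70 for miR-497-5p, or by 0.30 with both of its probes summed on every array. With both drugs replicate 1 was below replicate 2 for the same 4 members, by 0.19 to 0.29, and above it for miR-497-5p, by 0.32. With both of its probes summed miR-497-5p too was lower on replicate 1 there, by 0.21. By the file headers all 8 arrays lay on 1 slide, with every replicate 1 in row 1 and every replicate 2 in row 2. Each treatment had its own column, with DMSO in 1, luteolin in 2, gefitinib in 3 and the combination in 4. Replicate number and row thus cannot be told apart, and neither can treatment and column in any comparison. The gaps were there before scaling too: the unscaled signals of miR-15b-5p were 290.1 and 412 with DMSO and 299 and 469 with luteolin. The scanner software's own error for miR-15a-5p, miR-15b-5p and miR-16-5p was between 7.11% and 7.25% of the signal, and it rose to 12.4% for miR-195-5p and 17.9% for miR-497-5p.

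The 2 gefitinib arrays differed over the 365 miRNAs by about the scanner's stated error, with a mean squared gap of 1.04 in units of that error, against 2.45 to 10.8 in the other groups. They were kept as 2 samples, as the labels have them. Averaging them into 1 sample left 0 members called in all 7 comparisons. For the other arms described below, the gefitinib calls were then lost for miR-15b-3p and miR-16-2-3p. For the miR-15b 5p to 3p ratio those with gefitinib and luteolin were lost, while the 4 calls with both drugs held. Averaging does not alter the log2 changes themselves. The gefitinib group is then 1 sample, so the spread in its comparisons comes from the other groups.

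The log2 ratios among miR-15a-5p, miR-15b-5p and miR-16-5p varied less over the 8 arrays than the guide arms themselves. Over the 8 arrays the log2 ratio of miR-15a-5p to miR-16-5p had an SD of 0.04, that of miR-15b-5p to miR-16-5p an SD of 0.06 and that of miR-195-5p to miR-16-5p an SD of 0.14. The miR-15a-5p to miR-16-5p ratio stayed within 0.05 of its mean on every array, although those guide arms alone had SDs of 0.22 and 0.24. The total gene signal of miR-497-5p had an SD of 0.34 to 0.37 against any other member, but with both probes summed on every array the SD was 0.13 against miR-16-5p and 0.12 to 0.21 over the other 4. These are descriptions over arrays that share a slide and a scaling, and no test was made of them.

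**Figure D3:**
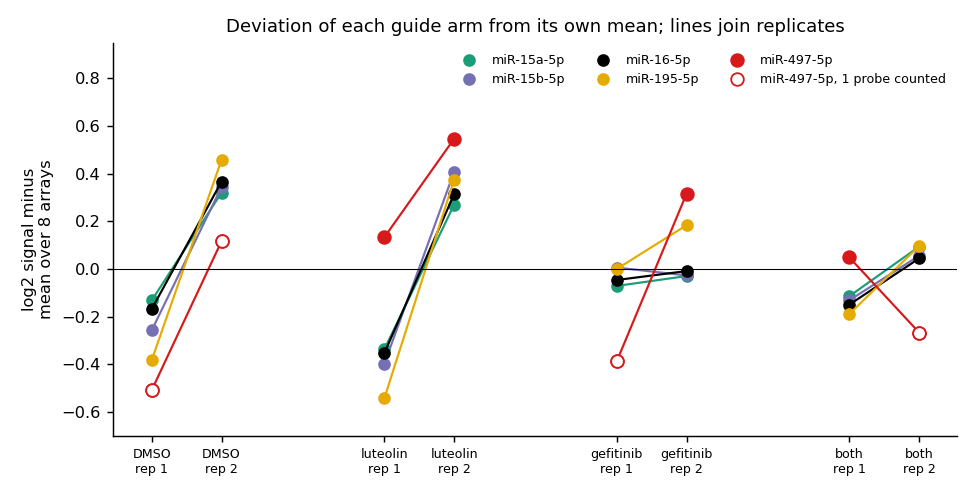
Log2 scaled signal of each guide arm minus its own mean over the 8 arrays (vertical axis), by treatment and replicate, with lines joining the 2 arrays of a treatment. miR-15a-5p, miR-15b-5p, miR-16-5p and miR-195-5p move together, low on replicate 1 and high on replicate 2 of DMSO and luteolin. Open red circles mark arrays on which the total gene signal of miR-497-5p counted 1 of its 2 probes.

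The number of probes in the total moved with the miR-497-5p result. The array holds 2 probes for each guide arm with 15 spots each, and the total gene signal adds up only the probes that the software called detected on that array. For miR-497-5p it counted 1 probe on both DMSO arrays, gefitinib replicate 1 and combination replicate 2, and 2 probes on both luteolin arrays, gefitinib replicate 2 and combination replicate 1. The other 4 members had 2 probes counted on every array. A number that differed between arrays was found for 69 of the 365 miRNAs detected on all arrays, or 18.9%.

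With both probes summed on every array, miR-497-5p had scaled signals of 4.53 and 6.42 with DMSO, 4.87 and 6.48 with luteolin, 4.48 and 5.53 with gefitinib and 4.59 and 5.31 with both drugs. Luteolin and DMSO then overlapped, and so did the combination and luteolin. The log2 change with luteolin was 0.06 (interval -0.53 to 0.64), with gefitinib -0.12 and with both drugs -0.13. This sum takes in a probe near background: 0 to 5 of the 15 spots of the dimmer probe were well above background on an array, against 13 to 15 of the brighter one. The brighter probe alone, at 3.12 and 4.81 with DMSO and 3.48 and 4.56 with luteolin, gave a log2 change of 0.04.

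**Figure D4:**
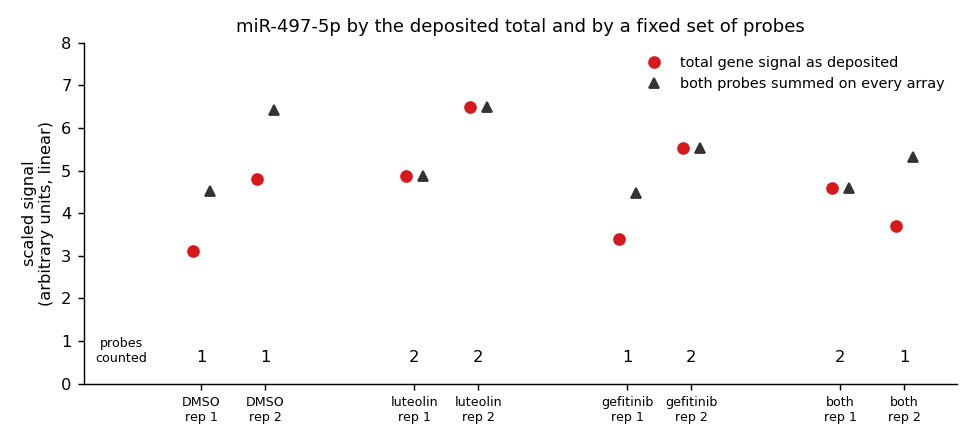
Scaled signal of miR-497-5p (arbitrary units, linear axis from 0) on the 8 arrays, as the deposited total gene signal (red circles) and as the sum of both probes on every array (black triangles), with the number of probes counted in the total printed above the axis. Both measures nearly coincide where 2 probes were counted, and the total lies lower where 1 was.

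Among the other arms of the same hairpins, the 3p strands that are mostly discarded, miR-15b-3p and miR-16-2-3p fell with gefitinib and with both drugs. The sequences of the 3 that were tested are shown with bases 2 to 8 in capitals, since their seeds differ from that of the guide arms and from each other.
hsa-miR-15a-3p: cAGGCCAUauugugcugccuca
hsa-miR-15b-3p: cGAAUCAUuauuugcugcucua
hsa-miR-16-2-3p: cCAAUAUUacugugcugcuuua

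Of 6 other arms on the array, miR-16-1-3p, miR-195-3p and miR-497-3p were detected on no array, and 3 were tested. With luteolin 0 of these 3 were called, with gefitinib 2 and with both drugs 2, all lower, where 1.88%, 4.58% and 6.04% of all tested miRNAs were called lower. miR-15a-3p was detected on the DMSO arrays alone, so it entered the test only through the group in which it was high.

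miR-15b-3p, which comes from the hairpin of miR-15b-5p, had scaled signals of 3.03 and 3.62 with DMSO, 1.21 and 1.59 with luteolin, 1.33 and 1.04 with gefitinib and 1.00 and 0.985 with both drugs. Every drug array lay below both DMSO arrays. The arrays of DMSO and a treatment did not overlap for 26.9% of all tested miRNAs with luteolin, 57.5% with gefitinib and 52.9% with both drugs. The log2 change was -1.26 with luteolin (limma adjusted p = 0.0548), and miR-15b-3p fell by 1.49 with gefitinib (SE 0.21, adjusted p = 0.0115) and by 1.74 with both drugs (SE 0.21, adjusted p = 0.00718). Its total counted 2 of 4 probes on the DMSO arrays and 1 on all others. With all 4 probes summed on every array the log2 change with luteolin was -0.82 (limma adjusted p = 0.248). So summed, miR-15b-3p fell by 1.15 with gefitinib (adjusted p = 0.0293) and by 1.29 with both drugs (adjusted p = 0.0152). Neither call held with quantile normalization, at -1.63 (adjusted p = 0.170) and -0.98 (adjusted p = 0.379), and the gefitinib call was also lost with scaling to spike-in probes (adjusted p = 0.0556) and without scaling (adjusted p = 0.0526). Both were lost without a filter on detection (adjusted p = 0.113 and 0.0771) and with normexp background correction and an offset of 50, which left changes of -0.08 (adjusted p = 0.0833) and -0.06 (adjusted p = 0.102). Leaving out 1 array at a time gave adjusted p up to 0.0894 for gefitinib, where the call was lost without either DMSO or either gefitinib array, and up to 0.0639 for both drugs, where it was lost without DMSO replicate 2 or combination replicate 2.

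miR-16-2-3p, from the neighbouring hairpin, had scaled signals of 7.65 and 8.92 with DMSO, 4.67 and 5.47 with luteolin, 4.88 and 5.03 with gefitinib and 3.62 and 3.63 with both drugs. Its DMSO arrays too lay above every drug array. The log2 change was -0.71 with luteolin (adjusted p = 0.113), and it fell by 0.74 with gefitinib (SE 0.15, adjusted p = 0.0350) and by 1.19 with both drugs (SE 0.15, adjusted p = 0.00804). Its total counted 2 of 4 probes on the DMSO and gefitinib arrays and 1 on the luteolin and combination arrays. With all 4 probes summed on every array the log2 change with luteolin was -0.55 (limma adjusted p = 0.248). So summed, miR-16-2-3p fell by 0.71 with gefitinib (adjusted p = 0.0329) and fell by 1.08 with both drugs (adjusted p = 0.00929). The gefitinib change depended on the scaling, at -0.24 with scaling to spike-in probes (adjusted p = 0.584), -0.37 without scaling (adjusted p = 0.454) and -0.38 with scaling to human small-RNA control probes (adjusted p = 0.160), while with quantile normalization it was -0.68 but not called (adjusted p = 0.131). The call for both drugs was lost with scaling to spike-in probes, at -0.99 (adjusted p = 0.0678), and with quantile normalization, at -0.95 (adjusted p = 0.0522). Without a filter on detection both calls were lost (adjusted p = 0.133 and 0.0533), and with normexp the changes were -0.10 with gefitinib (adjusted p = 0.0733) and -0.12 with both drugs (adjusted p = 0.0374). With 16 added to every signal before the log the 4 calls of miR-15b-3p and miR-16-2-3p held, with changes of -0.17 to -0.31. Leaving out 1 array at a time gave adjusted p up to 0.179 for gefitinib, where the call was lost without any 1 of the DMSO, gefitinib or combination arrays, and up to 0.0548 for both drugs, where it was lost without DMSO replicate 2 or combination replicate 2.

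miR-15a-3p had scaled signals of 0.907 and 1.98 with DMSO and was not detected on any drug array. Its DMSO total counted 1 probe on replicate 1 and 2 on replicate 2. By mean log2, this DMSO level was 2.20-fold above the lowest signal detected for any miRNA on the luteolin arrays. It was 2.47-fold above that on the gefitinib arrays and 1.94-fold above that on the combination arrays. How far miR-15a-3p itself fell was not measured. Its adjusted p by limma was 0.353, 0.108 and 0.108, so it was not called. With all its probes summed on every array the fit passed the threshold against DMSO, but 5 of the 6 drug sums lay under the floor of 0.594 and the arm was tested only through DMSO, so it is not counted as a call.

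The 5p to 3p ratio of a hairpin sets a guide arm against its own other arm on the same array. It was computed, after the values of the single arms had been seen, for the 58 hairpins with both arms tested. For miR-15b the log2 ratio was 6.67 and 7.02 with DMSO, 7.86 and 8.27 with luteolin, 8.12 and 8.45 with gefitinib and 8.39 and 8.60 with both drugs, so that all drug arrays lay above the DMSO arrays. Groups did not overlap for 43.1%, 62.1% and 63.8% of the 58 hairpins with luteolin, gefitinib and both drugs, and the ratio was higher than with DMSO for 65.5%, 69.0% and 62.1% of them, with median changes of 0.20, 0.27 and 0.24. The ratio rose by 1.22 with luteolin (interval 0.62 to 1.82, limma adjusted p = 0.0261), by 1.44 with gefitinib (0.84 to 2.04, adjusted p = 0.00885) and by 1.65 with both drugs (1.05 to 2.26, adjusted p = 0.00309), where 10.3%, 13.8% and 25.9% of the 58 hairpins were called. With all probes summed on every array it rose by 0.78 (adjusted p = 0.0355), 1.10 (adjusted p = 0.0126) and 1.21 (adjusted p = 0.00404). With quantile normalization no call of this ratio held, and the changes were 1.05, 1.49 and 0.86 (lowest adjusted p = 0.0644). With 16 added to every signal before the log they were 0.11, 0.12 and 0.11 (lowest adjusted p = 0.868), and with normexp they turned to -0.02, -0.11 and -0.05 (lowest adjusted p = 0.820). Without a filter the luteolin and gefitinib calls were lost (adjusted p = 0.266 and 0.0635). The luteolin call was lost without any 1 array except luteolin replicate 1 (adjusted p up to 0.150), the gefitinib call without DMSO replicate 1 or gefitinib replicate 2 (up to 0.0688), while the call for both drugs held without each of the 8 in turn (up to 0.0283).

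For miR-16-2 the log2 ratio of miR-16-5p to miR-16-2-3p was 6.32 and 6.64 with DMSO and 7.42 and 7.61 with both drugs. It rose by 1.04 with both drugs (interval 0.48 to 1.60, adjusted p = 0.0175), where 25.9% of the 58 hairpins were called. The changes with luteolin and gefitinib were 0.59 (adjusted p = 0.189) and 0.61 (adjusted p = 0.144). The miR-16-2-3p total behind them counted 2 probes with DMSO and gefitinib and 1 with luteolin and both drugs. With all probes summed on every array the ratio changed by 0.43 with luteolin (limma adjusted p = 0.280) and by 0.59 with gefitinib (0.136). So summed, the ratio rose by 0.93 with both drugs (limma adjusted p = 0.0175). Without DMSO replicate 1 or combination replicate 2 the call for both drugs was lost, at an adjusted p of up to 0.107. The call was also lost with the Student test of the methods and, by limma, without a filter (adjusted p = 0.0811). The change was 0.16 both with 16 added to every signal (adjusted p = 0.816) and with normexp (adjusted p = 0.459), and was not called. Since miR-16-5p also comes from the chromosome 13 hairpin, this ratio mixes products of both loci. For miR-15a the 3p arm was at the floor on every drug array, so the ratio has no measured change there.

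**Figure D5:**
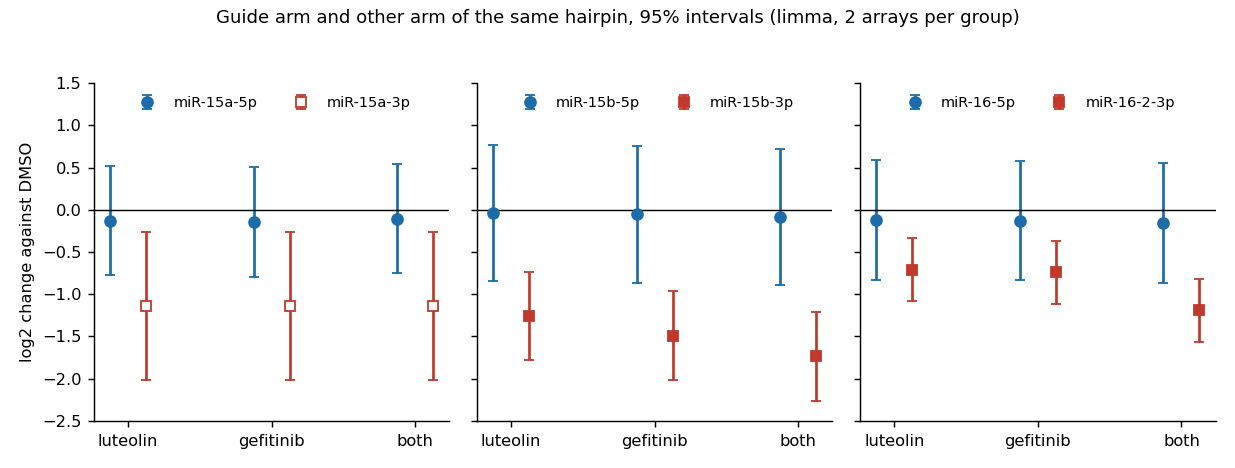
Log2 change against DMSO (vertical axis) of the guide arm (blue circles) and the other arm (red squares) of the miR-15a, miR-15b and miR-16-2 hairpins with luteolin, gefitinib and both drugs, with 95% limma intervals. The guide arms lie near 0 and their intervals hold it, while miR-15b-3p and miR-16-2-3p lie below 0. Open squares mark miR-15a-3p, which was not detected on the drug arrays, so that its points are set by the floor.

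A wider group joins these guide arms to miRNAs from other loci that carry all or most of the AGCAGC run at the 5′ end. The tested ones are shown with bases 2 to 8 in capitals.
hsa-miR-424-5p: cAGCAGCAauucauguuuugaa
hsa-miR-503-5p: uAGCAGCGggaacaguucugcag
hsa-miR-103a-3p: aGCAGCAUuguacagggcuauga
hsa-miR-107: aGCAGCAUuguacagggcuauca

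Of the 5 listed, miR-646 was detected on no array and 4 were tested. In each comparison against DMSO 1 of the 4 was called, beside 2.08%, 12.1% and 12.1% of all tested with luteolin, gefitinib and both drugs. It was miR-503-5p, whose bases 2 to 8 match those of miR-16-5p at 6 of 7 positions. miR-503-5p had scaled signals of 9.78 and 10.8 with DMSO, 1.11 and 1.45 with luteolin, 1.52 and 1.51 with gefitinib and 1.65 and 1.74 with both drugs. It fell by 3.02 with luteolin (adjusted p = 0.00179), by 2.76 with gefitinib (adjusted p = 0.00147) and by 2.60 with both drugs (adjusted p = 0.00116). Its total counted 3 probes with DMSO and 1 elsewhere. With all 3 summed on every array it fell by 2.35, fell by 2.10 and fell by 2.02, with adjusted p of 0.00190, 0.00196 and 0.00149. The luteolin call was lost with quantile normalization, with only the groups compared in the fit and with the Student test of the methods. Under the alternatives its log2 change ran from -3.22 to -0.28 with luteolin. It ran from -3.11 to -0.28 with gefitinib and from -2.67 to -0.26 with both drugs.

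miR-424-5p, which has the same seed as the members and lies beside miR-503-5p on the X chromosome, had scaled signals of 94.7 and 129 with DMSO, 62.5 and 103 with luteolin, 82.0 and 77.6 with gefitinib and 80.8 and 89.0 with both drugs. Its log2 change was -0.46 with luteolin (interval -1.16 to 0.24), -0.47 with gefitinib (-1.17 to 0.23) and -0.38 with both drugs (-1.08 to 0.32), and it was not called. Of the 6 miRNAs found with the AGCAGCA seed among those matched by name, 0 were thus called against DMSO. The shares of all tested miRNAs called were 2.08% with luteolin and 12.1% with gefitinib and with both drugs. miR-103a-3p, known for restraining Dicer, ran from 429 to 564 and miR-107 from 307 to 427, with log2 changes against DMSO between -0.07 and 0.07 and no call.

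Other miRNAs known to act on cyclins, their kinases or the inhibitors of those kinases were likewise not called. All 10 of the list were tested and 0 were called with luteolin, gefitinib or both drugs against DMSO, where 2.08%, 12.1% and 12.1% of all tested miRNAs were. The largest change in the list was -0.53 for miR-17-5p with gefitinib (adjusted p = 0.227), and the lowest adjusted p was 0.0909, for miR-221-3p with gefitinib at a log2 change of -0.49. let-7b-5p, a repressor of cyclin D1, changed by 0.28 with luteolin (adjusted p = 0.887) and 0.27 with both drugs (adjusted p = 0.516).

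Among the 360 other miRNAs detected on all arrays, those with log2 profiles most like the guide arms over the 8 arrays were picked by the root mean square difference of profiles centred on their own means. miR-331-3p (0.05) and miR-28-5p (0.06) were nearest to miR-15a-5p, let-7d-5p (0.05) and miR-221-5p (0.07) to miR-15b-5p, and miR-28-5p (0.05) and miR-221-5p (0.06) to miR-16-5p. miR-10b-5p (0.06) and miR-551b-3p (0.09) were nearest to miR-195-5p. For the total gene signal of miR-497-5p they were miR-3065-5p (0.21) and miR-320a (0.23). The median difference over all 360 was 0.32 to 0.42 for the 5 guide arms. With all probes of every miRNA summed on every array, the nearest to miR-497-5p were miR-194-5p (0.06) and miR-3065-5p (0.07), the second nearest to miR-195-5p was miR-192-5p (0.07), and the others were as before.

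let-7d-5p, nearest to miR-15b-5p, had scaled signals of 250.2 and 366 with DMSO, 233 and 380 with luteolin, 315 and 285 with gefitinib and 280.5 and 315 with both drugs. It was low on replicate 1 and high on replicate 2 of DMSO and luteolin, as the guide arms were.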

How the data were processed

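Total RNA of PC-3 cells (100 ng) was labelled with Cy3 and hybridised to 8 one-colour Agilent human miRNA arrays, 2 per treatment. The deposited files hold scanner intensity values from Agilent Feature Extraction 10.7.3.1, and the authors used its total gene signal; the file headers name GRCh37. The deposited series table, which holds a processed signal per spot, was used as an alternative alone. Intensities were divided by each array's 75th percentile over the 365 miRNAs detected on all arrays, floored at 0.609 and log2 transformed. The 480 miRNAs detected on all arrays of some treatment were fitted over all groups with limma 3.58.1 in R 4.3.3 (4 residual degrees of freedom), two-sided, in place of the Student test of the methods, since a group has only 2 arrays. An exact permutation test of 2 against 2 arrays cannot go below p = 0.333. The number of arrays limits the precision, and 0 miRNA spots were saturated. The fit was tested on simulated data.

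The members and lists were chosen with earlier results of these data known. All 5 members were named, with every tested miRNA of the other arms, the list of miR-103, miR-107, miR-424, miR-503 and miR-646 and the same seed, and from the cell-cycle list those called and at most 3 others. Probe sums with all probes, the 5p to 3p ratios and the averaging of both gefitinib arrays were added after seeing the data. Sequences and coordinates are RefSeq's (GRCh38.p14), matched by miRNA name for 5 of 5 members, and hairpins were placed within genes of the same assembly. Alternatives covered scaling, background correction, floor, filter, fit and left-out arrays.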

Additional observations from a re-analysis of the deposited data

How the results depend on the processing

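Under 24 alternatives the 5 guide arms gave 830 values, of which 0 were called and 0 had an unadjusted p under 0.05. The lowest adjusted p was 0.337 and the largest log2 change in size 1.12, for the interaction at miR-497-5p with scaling to spike-in probes, from totals that counted 1 or 2 probes; with both probes summed and the usual scaling that interaction was -0.07. Signs of these uncalled changes were not stable, with 143 of 830 opposite to the reported ones. With a replicate block 0 comparisons had a member called (lowest adjusted p 0.466) and 0 of the 8 calls of other arms and arm ratios were lost; replicate differences over 365 miRNAs correlated at 0.409 to 0.908 for the 3 pairs of groups without gefitinib and at -0.135 to 0.0652 for the 3 with it, so not every pair passed 0.1 and the numbers were not taken as pairing. Scaling to spike-in probes moved the median log2 change of those 365 from -0.11 to 0.38 for gefitinib. With it the guide arms changed by 0.35 to 0.65 with gefitinib, uncalled. With normexp background correction and an offset of 50, the change of the miR-15b 5p to 3p ratio was reversed, at -0.0182 with luteolin, -0.107 with gefitinib and -0.0481 with both drugs. The offset is far above the signal of miR-15b-3p. Of the 24 alternatives, 13 kept the call of miR-15b-3p with gefitinib and 18 with both drugs, 9 and 18 those of miR-16-2-3p, and 10, 16 and 20 those of the miR-15b ratio with luteolin, gefitinib and both drugs. The methods' t-test after Benjamini-Hochberg adjustment kept none of these calls, and of those of miR-503-5p the ones with gefitinib and with both drugs. Without a filter on detection 7 of the 8 calls of other arms and arm ratios were lost; 1367 of the 1887 miRNAs fitted then lay at the floor on all 8 arrays, with no spread. The 75th percentile over all miRNAs was not run, since on some arrays it falls on the value given to undetected ones.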
